A study of Homo sapiens with 6 samples.

Results

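The 10 genes described here encode 7 S100 proteins (S100A2, S100A6, S100A9, S100A10, S100A11, S100A14 and S100A16) and 3 secreted proteins of epithelial defence (LCN2, OLFM4 and SLPI). They were taken by name from a table of 22152 genes, and 10 of 10 passed the filter on low values. S100A7, S100A8 and DEFB4A were not analysed here. The cells were HaCaT, a line of human keratinocytes that became immortal in culture without an added oncogene. They were transfected with a synthetic negative control miRNA (NC mimic) or with a synthetic miR-21-3p (miR-21-3p mimic), each at 1 nM, and polyadenylated RNA was sequenced 48 h later. Each group had 3 biological replicates, all of 1 cell line, so that every p-value measured the spread between these transfections. The comparison asked which transcripts differed when the level of miR-21-3p was raised in keratinocytes.

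S100 proteins are small proteins, mostly calcium-binding, that act as dimers, inside the cell through partners such as annexins and outside it as alarm signals. Most of their genes lie in a cluster beside the genes of the cornified envelope, and several are strongly induced in psoriatic epidermis. Keratinocytes also secrete proteins that starve bacteria of iron or hold neutrophil proteases in check, and IL-17 and IL-22 are known inducers of this antimicrobial programme.

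Values are normalised read counts, that is, reads per gene divided by 1 size factor per library. Library depth, summed from reads recovered from these values and so good to their 3 significant digits, was 24403907, 24528419 and 26171272 reads in NC mimic replicates 1 to 3 and 24808624, 24977207 and 27985331 reads in miR-21-3p mimic replicates 1 to 3. The libraries had the transcripts of keratinocytes: of 10 marker genes, 8 were in the table, and their summed normalised count was 262400, 247900 and 262700 with the NC mimic and 263800, 271800 and 248100 with the miR-21-3p mimic. The basal keratin gene KRT5 was the most abundant of them, and the sums of both groups overlapped. KRT6A, a keratin of activated keratinocytes, was the only 1 of these 8 genes called (limma adjusted p = 0.0011), beside 11.1% of all genes tested. The fit without NC mimic replicate 2, a library described below, called 2 of the 8, beside 20.6% of all genes tested in that fit.

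Of markers of other cells, 1 of 10 neutrophil genes, 1 of 6 melanocyte genes and 1 of 7 fibroblast genes could be tested, and the others were not analysed here. The neutrophil marker CXCR2 was at 135, 113 and 117 with the NC mimic and at 97.9, 145 and 122 with the miR-21-3p mimic. The melanocyte marker PMEL was at 155, 120 and 128 and then at 145, 152 and 126. Both genes had overlapping groups. The fibroblast collagen gene COL1A1 was at 560, 390 and 478 with the NC mimic and at 372, 378 and 364 with the miR-21-3p mimic, every miR-21-3p library being lower (log2 fold change -0.34, limma adjusted p = 0.0614). COL1A1 was called without NC mimic replicate 2 (adjusted p = 0.000999) and with DESeq2 (adjusted p = 0.0278), its log2 fold change was -0.22 without NC mimic replicate 1, and its part in the results below was not tested.

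NC mimic replicate 2 lay apart from the other NC mimic libraries on the first principal component. On this component, which held 54.8% of the variance, it lay at -1.10, against -16.0 and -11.0 for NC mimic replicates 1 and 3 and 8.88, 4.93 and 14.3 for the miR-21-3p mimic libraries. Its position was therefore nearer to the miR-21-3p mimic libraries than that of the other controls, and results are given with and without it. By the chi-square per gene between the reads of 2 libraries, it was not apart. This was 2.095 for NC mimic replicates 2 and 3, 2.155 for replicates 1 and 3 and 3.229 for replicates 1 and 2. Fits without NC mimic replicate 2 leave out the control nearest to the miR-21-3p mimic libraries and are not corrected results. In bulk RNA of this kind, fewer cells of a type and less RNA per cell cannot be told apart.

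With the miR-21-3p mimic, S100A2, S100A11, S100A16, SLPI and OLFM4 were higher and LCN2 was lower. The S100 and SLPI changes were small, from 1.12-fold for S100A11 to 1.23-fold for S100A2, whereas OLFM4 was 2.35-fold higher at a low level and LCN2 was at 0.794 of its control level. S100A6, S100A9, S100A10 and S100A14 did not pass the test. Called genes had a limma adjusted p under 0.05 over all 14795 genes tested. Thus 6 of 10 genes were called, beside 11.1% of all genes tested, with 5 higher (6.25% of all genes) and 1 lower (4.85% of all genes). These shares cover genes of all levels, whereas the S100 genes other than S100A9 lay at percentiles 88.9 to 99.8 of level among the genes tested. LCN2 and SLPI lay at percentiles 59 and 74.4, and S100A9 and OLFM4 at 15.5 and 8.3. No share among genes of like level was taken, and the genes were chosen with earlier results of these data known. The groups did not overlap for 8 of the 10 genes, beside 31.3% of all genes tested, being higher for 6 (beside 16.5%) and lower for 2 (beside 14.8%). The median log2 fold change of the 10 genes was 0.14, beside 0.0044 over all genes tested. Fold changes were differences of group means on the log2(value + 1) scale, so that they need not equal the ratios of the means given below.

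**Figure D1:**
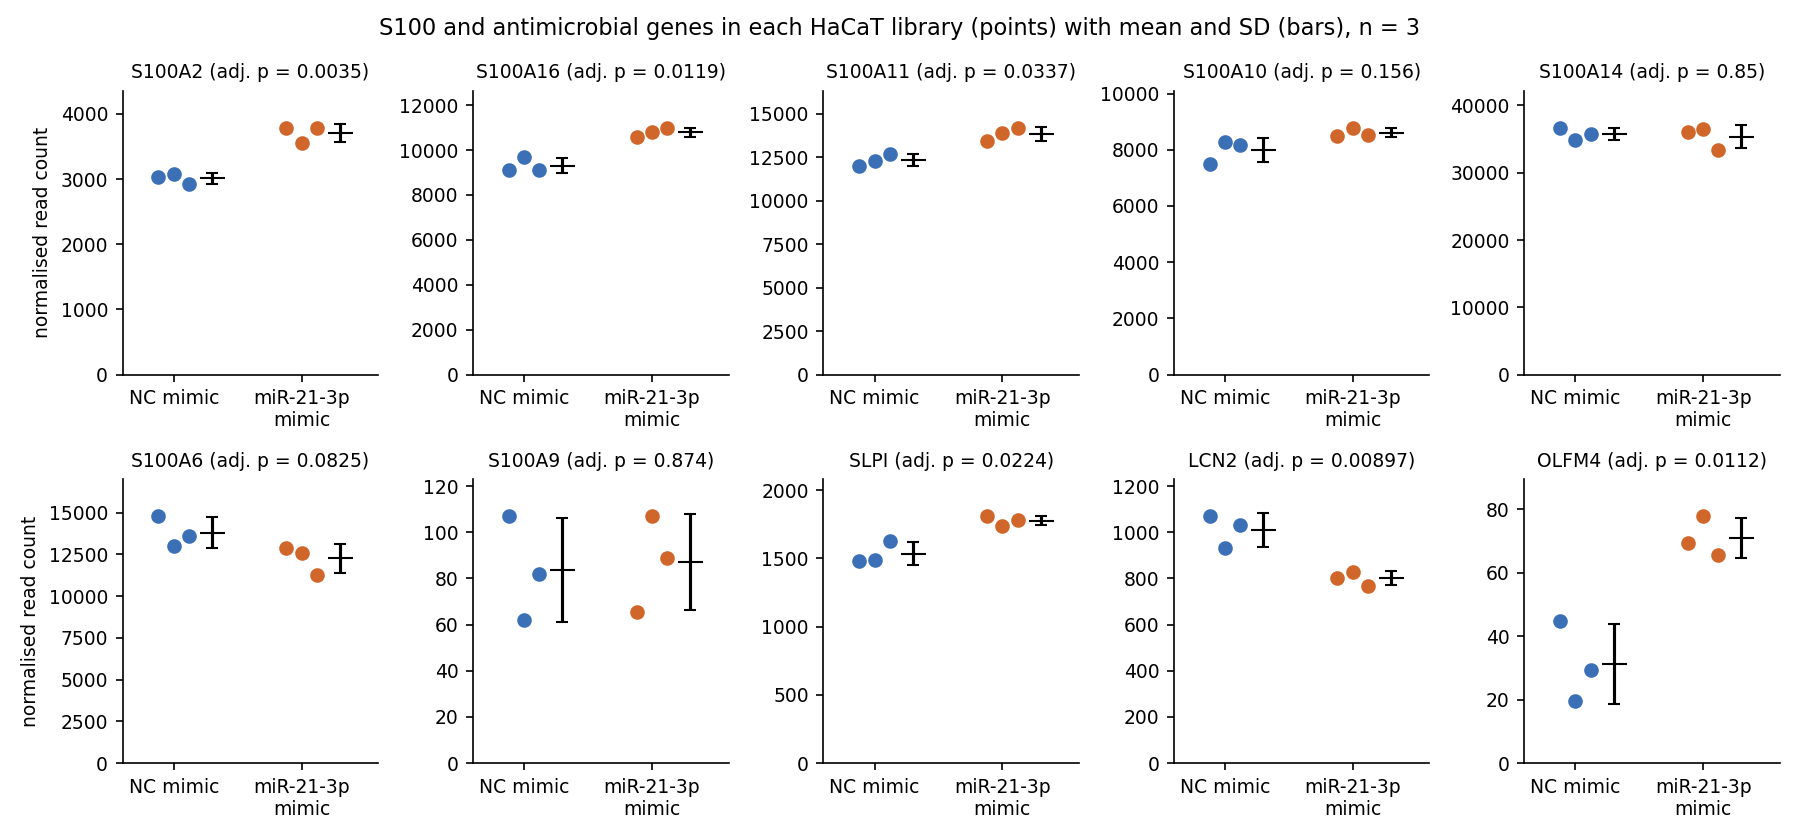
Normalised read counts of the 10 genes (vertical axes, each starting at 0) in the 3 NC mimic libraries (blue) and the 3 miR-21-3p mimic libraries (orange), with the mean and SD of each group as black bars and the limma adjusted p over all genes in each title. The groups are separate for S100A2, S100A16, S100A11, S100A10, S100A6, SLPI, LCN2 and OLFM4, and they overlap for S100A14 and S100A9.

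These counts moved with single libraries. Without NC mimic replicate 2, limma called 7 of the 10 genes (5 higher and 2 lower, S100A6 being the added one) and 3054 of all genes (20.6%), against 1641 (11.1%) with all 6 libraries. It called 4 of the 10 and 620 of all genes without NC mimic replicate 1, 2 and 257 without NC mimic replicate 3, 1 and 308 without miR-21-3p mimic replicate 1, 5 and 1620 without miR-21-3p mimic replicate 2, and 3 and 399 without miR-21-3p mimic replicate 3. S100A2 was the only gene of the 10 called in each of these 6 fits.

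**Figure D2:**
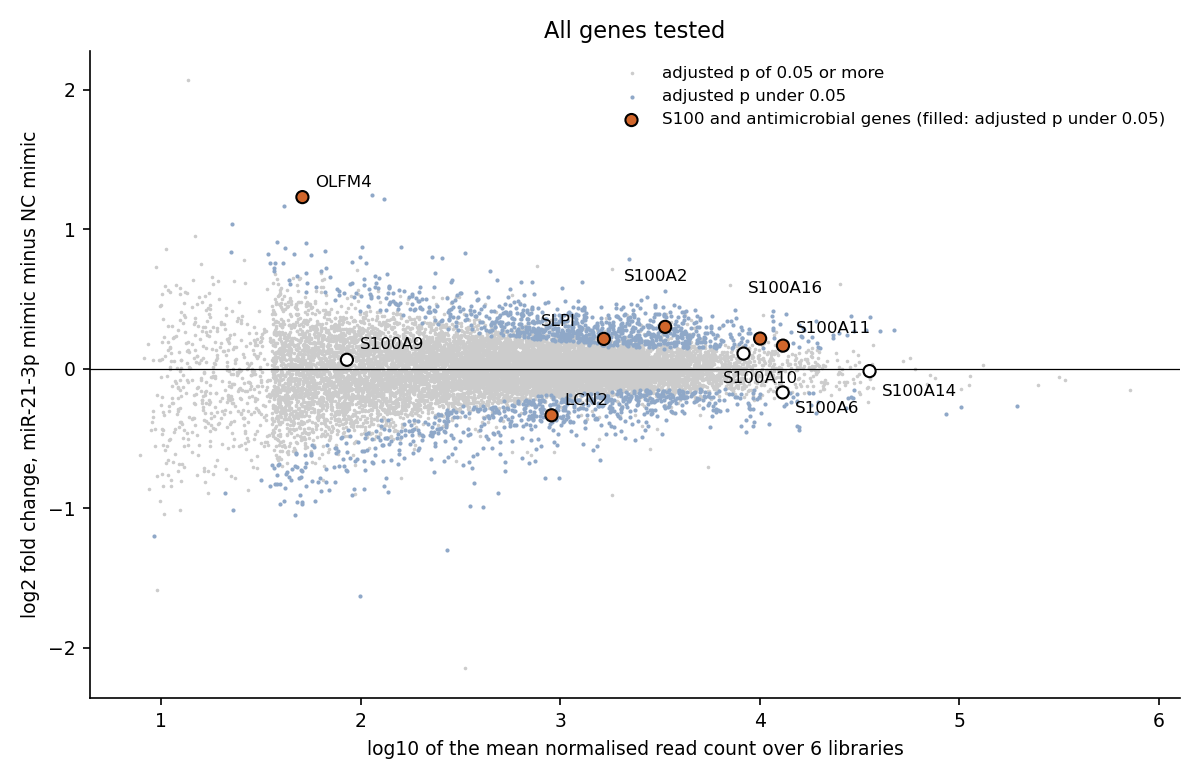
Log2 fold change (vertical axis) against the log10 of the mean normalised read count (horizontal axis) for all 14795 genes tested, with the 10 genes circled and filled where the limma adjusted p was under 0.05. OLFM4 lies at the left with a log2 fold change of 1.23, while the S100 genes other than S100A9 lie at the right, between -0.17 and 0.30.

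All 7 S100 genes lie within 1634072 bases of chromosome 1 (GENCODE release 29, GRCh38). In order along the chromosome these are S100A10 (chr1:151982915-151994390, minus strand), S100A11 (chr1:152032506-152047907, minus), S100A9 (chr1:153357854-153361027, plus), S100A6 (chr1:153534599-153536244, minus), S100A2 (chr1:153561108-153567890, minus), S100A16 (chr1:153606886-153613145, minus) and S100A14 (chr1:153614255-153616986, minus). The other genes lie on separate chromosomes: LCN2 at chr9:128149071-128153455 (plus), OLFM4 at chr13:53028759-53052057 (plus) and SLPI at chr20:45252239-45254564 (minus). The annotation places an antisense gene across S100A6 (BX470102.1) and another across S100A11 (AL450992.1), and it lists the pseudogenes S100A11P1 and S100A11P2. The library kit kept strand, but the strand setting used in counting was not given in the sources used here, so reads of S100A6 and S100A11 may not be theirs alone.

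Between the ends of S100A10 and S100A14, 20 genes were tested, of which 4 were higher and 3 lower, beside 6.25% and 4.85% of all genes tested. The 7 S100 genes described here gave 3 of the higher calls and none of the lower ones. The 13 other genes, which included S100A4, gave 1 higher and 3 lower calls, with a median log2 fold change of -0.0395. They were taken by position after their values were seen. FLG, the gene of the barrier protein filaggrin, was at a mean normalised count of 3843 with the NC mimic and 3230 with the miR-21-3p mimic (log2 fold change -0.25, limma adjusted p = 0.0296). The antisense gene FLG-AS1 was also lower (-0.33, adjusted p = 0.0466), as was RPTN, the gene of the cornified envelope protein repetin (-0.86, adjusted p = 0.0483), and the late cornified envelope gene LCE1E was higher (0.64, adjusted p = 0.033). These calls were lost when single libraries were left out, though the direction held in each fit: without 1 library the log2 fold change ran from -0.33 to -0.19 for FLG, -0.45 to -0.22 for FLG-AS1 (weakest without NC mimic replicate 1), -1.18 to -0.69 for RPTN and 0.58 to 0.70 for LCE1E. Leaving out NC mimic replicate 1, NC mimic replicate 3, miR-21-3p mimic replicate 1 or miR-21-3p mimic replicate 3 brought FLG to adjusted p = 0.106, 0.126, 0.083 and 0.116. The same 4 fits gave 0.108, 0.147, 0.106 and 0.135 for FLG-AS1, 0.161, 0.171, 0.086 and 0.151 for RPTN and 0.0842, 0.124, 0.0976 and 0.0981 for LCE1E. Without miR-21-3p mimic replicate 2 the adjusted p was 0.093 for FLG-AS1, 0.069 for RPTN and 0.0752 for LCE1E, and LCE1E was not called by DESeq2 either (0.124), nor RPTN without the filter on low values (0.0506).

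Promoter windows of 9 of the 10 genes, from 250 bases before to 50 bases after a start site, were taken from RefSeq (GRCh38.p14). The match by symbol returned no window for SLPI, which does not mean that RefSeq lacks a start site for it. They are shown for S100A2, the gene with the lowest adjusted p, for LCN2 and OLFM4, which changed in opposite directions, and for S100A14, which did not pass the test. Capitals mark the matches to 5 motifs searched on both strands, which were the TATA box TATAAA, the AP-1 motif TGANTCA, the C/EBP motif TTGCNNAA, the STAT motif TTCNNNGAA and the degenerate NF-kB consensus. The S100A2 window was chr1:153565795-153566094 (minus strand), with a further RefSeq start downstream. The LCN2 window was chr9:128149203-128149502 (plus), the OLFM4 window chr13:53028563-53028862 (plus) and the S100A14 window chr1:153616276-153616575 (minus). The windows of S100A2, LCN2 and S100A14 lay wholly inside the annotated gene, and that of OLFM4 began before its gene and ended inside it.
S100A2: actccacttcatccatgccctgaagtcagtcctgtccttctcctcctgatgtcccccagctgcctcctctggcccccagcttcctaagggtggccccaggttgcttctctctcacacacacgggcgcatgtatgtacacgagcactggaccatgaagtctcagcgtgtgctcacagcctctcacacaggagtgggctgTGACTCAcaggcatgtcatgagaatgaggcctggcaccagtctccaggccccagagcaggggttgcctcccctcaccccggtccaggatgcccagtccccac
LCN2: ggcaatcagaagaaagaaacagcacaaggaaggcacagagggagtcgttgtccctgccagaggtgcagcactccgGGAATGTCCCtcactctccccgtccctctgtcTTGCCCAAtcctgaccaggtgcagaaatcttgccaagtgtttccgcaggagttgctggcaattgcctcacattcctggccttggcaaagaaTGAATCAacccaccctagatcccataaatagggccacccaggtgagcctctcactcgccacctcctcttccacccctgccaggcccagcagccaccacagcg
OLFM4: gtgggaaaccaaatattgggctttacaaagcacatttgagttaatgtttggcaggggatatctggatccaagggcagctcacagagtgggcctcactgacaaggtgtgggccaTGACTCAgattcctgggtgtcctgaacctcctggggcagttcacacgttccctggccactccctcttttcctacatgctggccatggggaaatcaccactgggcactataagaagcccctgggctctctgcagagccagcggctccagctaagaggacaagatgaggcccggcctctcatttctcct
S100A14: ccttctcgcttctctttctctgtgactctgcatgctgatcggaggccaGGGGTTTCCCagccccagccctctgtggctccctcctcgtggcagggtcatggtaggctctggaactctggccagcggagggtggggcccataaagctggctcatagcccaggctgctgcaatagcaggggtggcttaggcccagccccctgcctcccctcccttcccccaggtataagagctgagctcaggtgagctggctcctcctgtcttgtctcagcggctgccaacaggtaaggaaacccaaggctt
S100A2 held the AP-1 letters TGACTCA, starting at -52 from the start site. LCN2 held TGAATCA, also at -52, together with C/EBP letters at -143 and NF-kB letters at -175. OLFM4 held TGACTCA at -137, and S100A14 held only NF-kB letters, at -202. None of these matches overlapped another motif. The 9 genes had 11 windows, of which AP-1 letters were found in 3 (beside 7.71% of all 35116 windows), C/EBP letters in 2 (10.5%), NF-kB letters in 2 (11.3%), the TATA box in 1 (11.5%) and STAT letters in 0 (7.66%). The 3 genes with AP-1 letters included 2 that were higher and 1 that was lower, so this match did not sort the genes by direction. A match describes the letters of a window and does not show that a factor binds there.

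Levels between genes were compared as normalised read counts per kilobase of exon, with the exons of all annotated transcripts merged. On this scale S100A14, an S100 protein of epithelia, had the highest level in NC mimic cells, 27980 ± 744 (SD, n = 3). It was followed by S100A11 at 18130 ± 517 and S100A6 at 14210 ± 944. S100A16 at 5467 ± 194 and S100A10 at 5178 ± 271 had SD ranges that overlapped in NC mimic cells. SLPI at 2572 ± 141, S100A2 at 1921 ± 52.2 and LCN2 at 632 ± 45.1 came next. The lowest levels per kilobase were those of S100A9 at 145 ± 39.2 and OLFM4 at 10.8 ± 4.39. The order of the 10 genes was the same with the miR-21-3p mimic, where S100A16 at 6349 ± 118 and S100A10 at 5578 ± 104 had SD ranges that did not overlap. Together, the 10 genes took 0.338%, 0.331% and 0.333% of the summed normalised counts of the NC mimic libraries and 0.348%, 0.348% and 0.338% of those of the miR-21-3p mimic libraries.

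**Figure D3:**
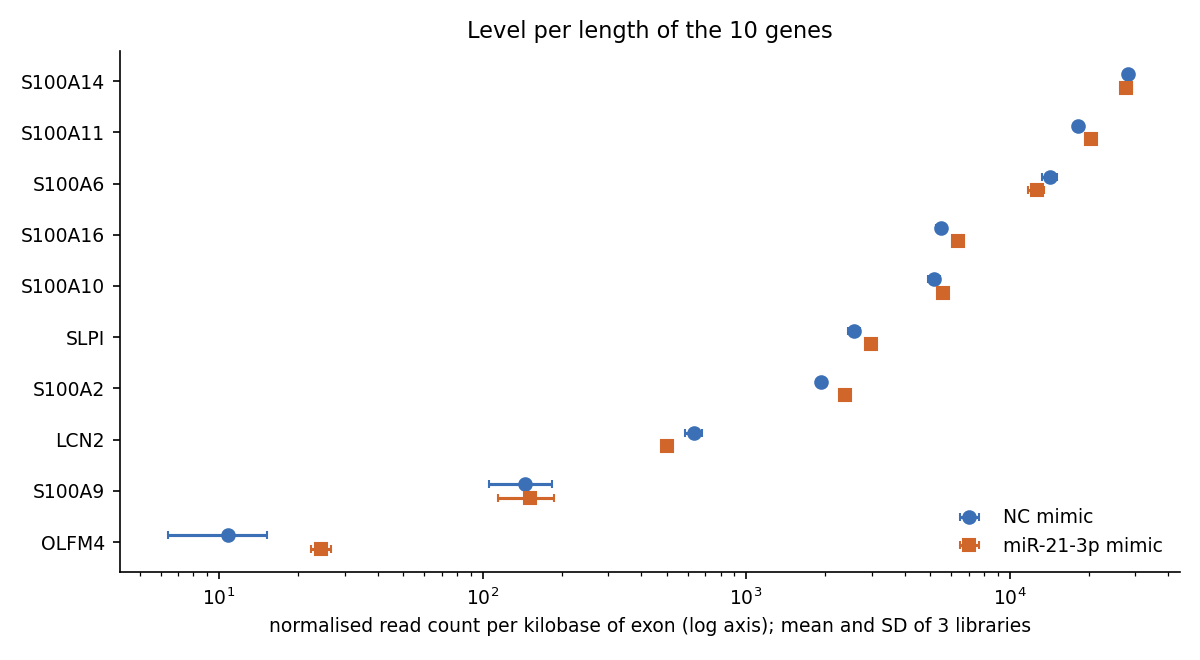
Mean normalised read count per kilobase of exon (horizontal log axis) of the 10 genes with NC mimic (blue circles) and miR-21-3p mimic (orange squares), with the SD of 3 libraries as bars. The levels run from 10.8 for OLFM4 to 27980 for S100A14 in NC mimic cells, and the order of the genes is the same in both groups.

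S100A2, found largely in the nucleus of basal keratinocytes and able to bind p53, had the lowest adjusted p of the 10 genes. Its normalised read count was 3030, 3080 and 2920 with the NC mimic and 3780, 3550 and 3790 with the miR-21-3p mimic. Each miR-21-3p mimic library was above each NC mimic library, with a wide gap between the groups. The means were 3010 ± 81.9 and 3707 ± 136 (SD, n = 3), and the log2 fold change was 0.30 (SE 0.0467, 95% confidence interval 0.20 to 0.40, limma adjusted p = 0.0035). S100A2 was called in 18 of 18 alternative fits, with log2 fold changes from 0.28 to 0.33 and adjusted p from 2.24e-05 to 0.0389. These fits include those without NC mimic replicate 2 and without each other library.

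Among 10133 genes with a mean of at least 10 CPM (counts scaled by library depth), the profile of S100A2 over the 6 libraries was most like those of TUSC3, HAS3, FHOD1, KRT6A and CUL1 (Pearson r of log2 CPM from 0.994 to 0.995). With 6 libraries in 2 groups, such values mostly follow the gap between the groups and are a description. HAS3, a hyaluronan synthase gene, rose from a mean normalised count of 1012 to 1553 (log2 fold change 0.62, limma adjusted p = 0.000353). KRT6A rose from 16800 to 21300 (0.34, adjusted p = 0.0011). The formin gene FHOD1 (0.28, adjusted p = 0.0144) and the cullin gene CUL1 (0.19, adjusted p = 0.026) were called, and TUSC3 (0.21, adjusted p = 0.0512) was not, though it was without NC mimic replicate 2 (adjusted p = 0.0353). FHOD1 lost its call without NC mimic replicate 3 (0.0811), miR-21-3p mimic replicate 1 (0.0759) or miR-21-3p mimic replicate 3 (0.0701). CUL1 lost it without these libraries too (0.116, 0.107 and 0.101) and without NC mimic replicate 1 (0.0606).

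S100A16, a calcium-binding protein present in many tissues, was at 9120, 9680 and 9100 with the NC mimic and at 10600, 10800 and 11000 with the miR-21-3p mimic. All miR-21-3p mimic libraries were higher, and NC mimic replicate 2 was the highest of the controls. The means were 9300 ± 329 and 10800 ± 200 (SD, n = 3), a log2 fold change of 0.22 (SE 0.0449, 95% confidence interval 0.12 to 0.31, limma adjusted p = 0.0119). The call was lost without NC mimic replicate 3 (adjusted p = 0.0797), miR-21-3p mimic replicate 1 (0.0579) or miR-21-3p mimic replicate 3 (0.0513), and it held without NC mimic replicate 2.

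S100A11, a partner of annexin A1 in keratinocytes, was at 12000, 12300 and 12700 with the NC mimic and at 13400, 13900 and 14200 with the miR-21-3p mimic. The groups were separate, with a gap about as wide as the spread within each. The means were 12330 ± 351 and 13830 ± 404 (SD, n = 3), and the log2 fold change of 0.17 (SE 0.0452, 95% confidence interval 0.07 to 0.26) passed the test narrowly (limma adjusted p = 0.0337). Of the fits that left out 1 library, S100A11 was called only in that without NC mimic replicate 2. Its adjusted p was 0.104 without NC mimic replicate 1, 0.0914 without NC mimic replicate 3, and 0.0887, 0.0603 and 0.118 without miR-21-3p mimic replicates 1, 2 and 3.

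S100A10 forms a complex with annexin A2 at the plasma membrane. It was at 7510, 8280 and 8180 with the NC mimic and at 8490, 8790 and 8540 with the miR-21-3p mimic. NC mimic replicate 1 was low, and the other controls came close to the miR-21-3p mimic libraries without reaching them. The log2 fold change was 0.11 (SE 0.0483, 95% confidence interval 0.0047 to 0.21) and did not pass the test over all genes (limma adjusted p = 0.156), nor in any of the 18 alternatives (0.0748 to 0.434). The log2 fold change fell to 0.0644 without NC mimic replicate 1.

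S100A14 was at 36700, 34800 and 35700 with the NC mimic and at 36100, 36500 and 33400 with the miR-21-3p mimic. The groups overlapped, and miR-21-3p mimic replicate 3 was the lowest of the 6. The log2 fold change was -0.017 (SE 0.0487, 95% confidence interval -0.12 to 0.0877, limma adjusted p = 0.85), so that larger changes in either direction lay outside the interval. Its sign turned without NC mimic replicate 1 (0.0024) and without miR-21-3p mimic replicate 3 (0.023), and the log2 fold change was -0.0359 without NC mimic replicate 2 and -0.0331 and -0.041 without miR-21-3p mimic replicates 1 and 2.

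S100A6, also named calcyclin, was at 14800, 13000 and 13600 with the NC mimic and at 12900, 12600 and 11300 with the miR-21-3p mimic. The groups did not overlap, but NC mimic replicate 2 and miR-21-3p mimic replicate 1 were next to each other. The means were 13800 ± 917 and 12270 ± 851 (SD, n = 3), with a log2 fold change of -0.17 (SE 0.06, 95% confidence interval -0.30 to -0.041, limma adjusted p = 0.0825). Without NC mimic replicate 2 the log2 fold change was -0.21 and S100A6 was called (adjusted p = 0.0175), against a range of 0.0175 to 0.292 over all alternatives. Without miR-21-3p mimic replicate 3 the log2 fold change was -0.11.

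S100A9, the partner of S100A8 in calprotectin, which withholds zinc and manganese from microbes, was at 107, 61.8 and 82.0 with the NC mimic and at 65.3, 107 and 88.8 with the miR-21-3p mimic. The libraries of both groups covered the same range. These values stood for 103, 60 and 84 reads and for 64, 104 and 99 reads, for which counting alone gives a relative error of 9.81% to 12.9%, below the coefficient of variation between libraries (27.1% and 24.0%). The log2 fold change was 0.0639 (SE 0.215, 95% confidence interval -0.40 to 0.53, limma adjusted p = 0.874), an interval that held changes in both directions. The sign turned without NC mimic replicate 2 (-0.13) and without miR-21-3p mimic replicate 2 (-0.0977), and the log2 fold change was 0.26 without NC mimic replicate 1, 0.25 without miR-21-3p mimic replicate 1 and 0.0354 without miR-21-3p mimic replicate 3.

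LCN2 encodes lipocalin 2, which binds the siderophores that bacteria use to take up iron. Its normalised read count was 1070, 930 and 1030 with the NC mimic and 803, 829 and 769 with the miR-21-3p mimic. Every miR-21-3p mimic library was lower, and NC mimic replicate 2 was the lowest of the controls. The means were 1010 ± 72.1 and 800.3 ± 30.1 (SD, n = 3), a log2 fold change of -0.33 (SE 0.0654, 95% confidence interval -0.47 to -0.19, limma adjusted p = 0.00897). LCN2 was the only gene of the 10 called lower with all libraries. The call was lost without NC mimic replicate 3 (adjusted p = 0.061) or miR-21-3p mimic replicate 1 (0.0537) and held without NC mimic replicate 2.

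SLPI encodes the secretory leukocyte protease inhibitor, which blocks neutrophil elastase and also kills bacteria. Its normalised read count was 1480, 1490 and 1630 with the NC mimic and 1810, 1740 and 1780 with the miR-21-3p mimic. The groups were separate, NC mimic replicate 3 being the control nearest to the miR-21-3p mimic libraries. The means were 1533 ± 83.9 and 1777 ± 35.1 (SD, n = 3), a log2 fold change of 0.21 (SE 0.0526, 95% confidence interval 0.10 to 0.33, limma adjusted p = 0.0224). The call was lost without NC mimic replicate 1 (adjusted p = 0.0714), miR-21-3p mimic replicate 1 (0.112) or miR-21-3p mimic replicate 3 (0.0804) and held without NC mimic replicate 2.

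OLFM4 encodes olfactomedin 4, a secreted glycoprotein of neutrophil granules and of the intestinal epithelium. Its normalised read count was 44.8, 19.6 and 29.3 with the NC mimic and 69.3, 77.8 and 65.5 with the miR-21-3p mimic. These values stood for 43, 19 and 30 reads and for 68, 76 and 73 reads. The controls were low and spread widely (coefficient of variation 40.7%), and the miR-21-3p mimic libraries lay close together above them (8.89%). The means were 31.2 ± 12.7 and 70.9 ± 6.30 (SD, n = 3), and the log2 fold change of 1.23 (SE 0.247, 95% confidence interval 0.69 to 1.76, limma adjusted p = 0.0112) was the largest in size of the 10 genes. It was 0.94 without NC mimic replicate 2, the lowest control, and 1.52 without NC mimic replicate 1, the highest. The call was lost without NC mimic replicate 3 (adjusted p = 0.0597) or miR-21-3p mimic replicate 1 (0.0537).

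**Figure D4:**
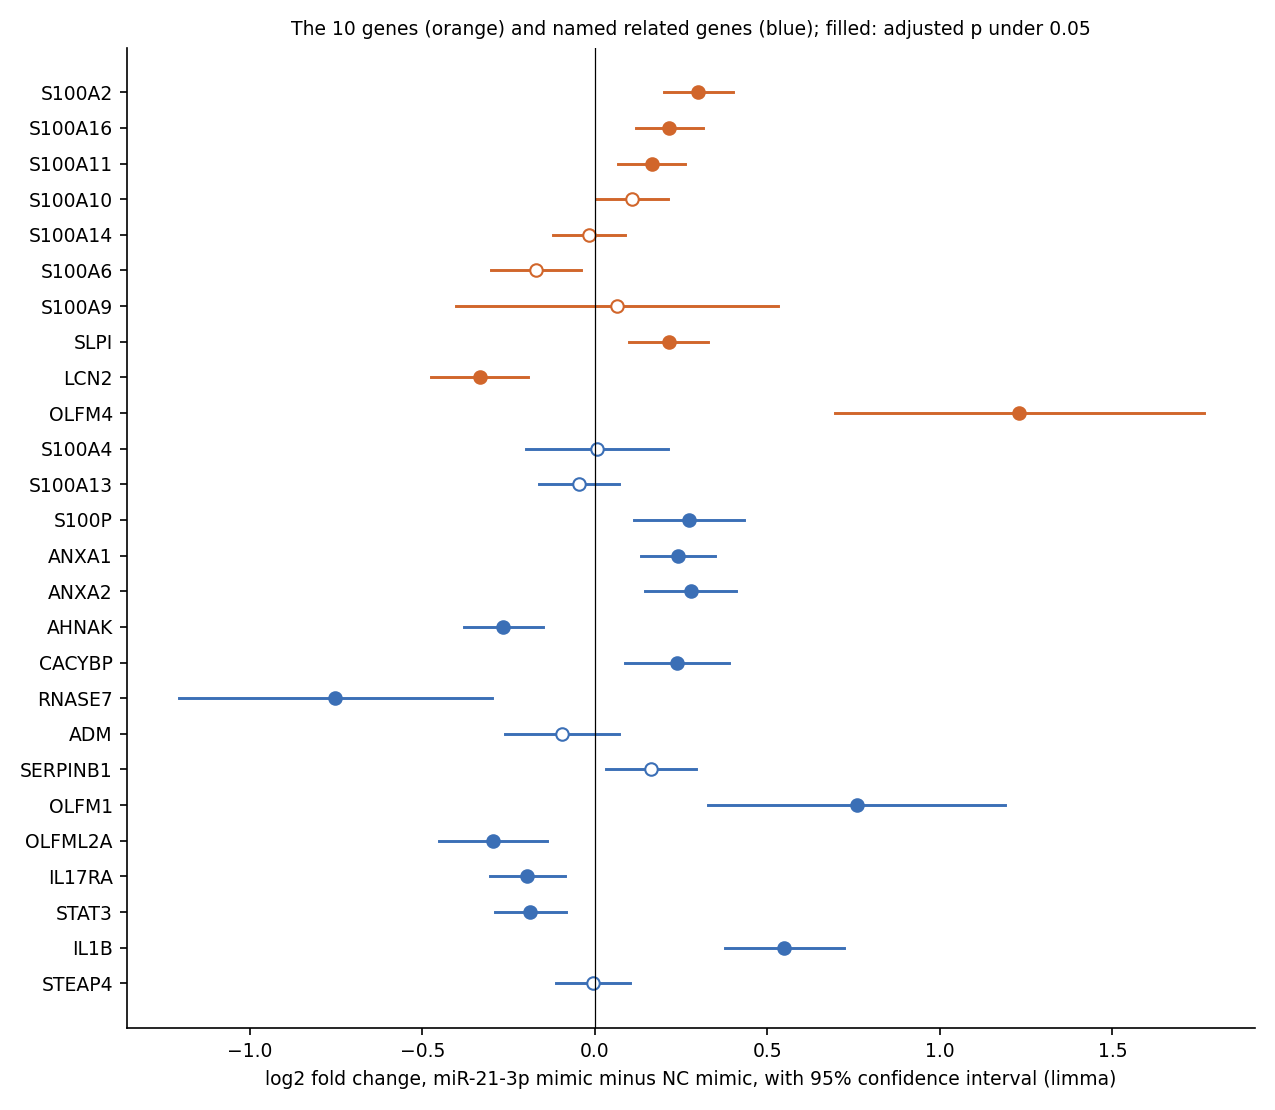
Log2 fold change, miR-21-3p mimic minus NC mimic, with its 95% confidence interval from limma, for the 10 genes (orange) and related genes (blue), filled where the adjusted p was under 0.05. Of the 10 genes, OLFM4 has the widest interval, 0.69 to 1.76, and LCN2 is the only filled point left of 0.

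Of 13 other S100 genes, 3 were in the table and were tested, of which 1 was higher and 0 lower, beside 6.25% and 4.85% of all genes tested. The others were not analysed here. S100P, an S100 protein of several epithelia encoded on chromosome 4, was at 1030, 1160 and 1180 with the NC mimic and at 1220, 1470 and 1390 with the miR-21-3p mimic. Its groups were separate, and it rose (log2 fold change 0.27, limma adjusted p = 0.0332). The call was lost without NC mimic replicate 1 (adjusted p = 0.117), NC mimic replicate 3 (0.0786), miR-21-3p mimic replicate 2 (0.0937) or miR-21-3p mimic replicate 3 (0.116). The log2 fold change of S100P stayed positive in these fits, at 0.21, 0.31, 0.22 and 0.26. S100A13, which takes part in the export of fibroblast growth factor, had a log2 fold change of -0.0456 (adjusted p = 0.62), which was -0.0116 and -0.0788 without NC mimic replicates 1 and 2 and -0.0142 and -0.0833 without miR-21-3p mimic replicates 2 and 3. S100A4, a protein tied to cell motility, had one of 0.0066 (adjusted p = 0.97), of which the sign turned with the scaling.

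Of 11 genes for binding partners and receptors of S100 proteins, 9 were tested, of which 3 were higher and 1 lower, beside 6.25% and 4.85% of all genes tested. The median log2 fold change was 0.20. ANXA1, the annexin bound by S100A11, was at 23500, 25500 and 26000 with the NC mimic and at 28800, 30600 and 29200 with the miR-21-3p mimic (log2 fold change 0.24, limma adjusted p = 0.012). ANXA2, the annexin bound by S100A10, was at 9660, 11300 and 10500 and then at 12000, 12600 and 13500 (0.28, adjusted p = 0.0149). All miR-21-3p mimic libraries were above all controls for both annexins. CACYBP, whose protein binds S100A6 and takes part in the breakdown of beta-catenin, was at 783, 938 and 881 and then at 1010, 983 and 1070 (0.24, adjusted p = 0.0442). AHNAK, a very large scaffold protein that binds the complex of S100A10 and annexin A2, was at 217000, 198000 and 221000 and then at 179000, 181000 and 169000 (-0.26, adjusted p = 0.0107). It was the most abundant of the 9 by normalised count and the only one of them called lower.

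All 4 of these calls held without NC mimic replicate 2, and 5 of the 9 genes were then called, beside 20.6% of all genes tested in that fit. ANXA1 lost its call without miR-21-3p mimic replicate 1 (adjusted p = 0.0554). ANXA2 lost it without NC mimic replicate 1 (0.0522), NC mimic replicate 3 (0.0721) or miR-21-3p mimic replicate 3 (0.0687), and AHNAK without NC mimic replicate 3 (0.0781), miR-21-3p mimic replicate 1 (0.0591) or miR-21-3p mimic replicate 3 (0.0512). CACYBP was the least steady: it lost its call without NC mimic replicate 1 (0.148), NC mimic replicate 3 (0.119) or miR-21-3p mimic replicates 1, 2 and 3 (0.134, 0.0535 and 0.161), with total counts as the only scaling in edgeR (0.0512) and with limma on log2 CPM (0.0504).

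Ratios within a library do not depend on its scaling, and 4 pairs of genes were compared in this way, chosen after their values were seen. The ratio of S100A11 to S100A6 was 0.811, 0.946 and 0.934 with the NC mimic and 1.04, 1.10 and 1.26 with the miR-21-3p mimic. S100A6 was thus above S100A11 in normalised count in each control and below it in each miR-21-3p mimic library, whereas per kilobase of exon the mean of S100A11 was above that of S100A6 in both groups. The ratio of S100A6 to CACYBP was 18.9, 13.9 and 15.4 and then 12.8, 12.8 and 10.6. The ratio of S100A10 to ANXA2 was 0.777, 0.733 and 0.779 and then 0.708, 0.698 and 0.633, lower in each miR-21-3p mimic library. The ratio of S100A11 to ANXA1 was 0.511, 0.482 and 0.489 and then 0.465, 0.454 and 0.486, with overlapping groups. These ratios are a description and were not tested.

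Of 18 other antimicrobial genes of epithelia, 5 were tested, of which 0 were higher and 1 was lower, beside 6.25% and 4.85% of all genes tested. The median log2 fold change was -0.32. RNASE7, an antimicrobial ribonuclease of the skin surface, was at 46.9, 44.3 and 68.4 with the NC mimic and at 25.5, 33.8 and 33.2 with the miR-21-3p mimic. Its groups were separate at a low level (log2 fold change -0.75, limma adjusted p = 0.0367). It was not called by DESeq2 (adjusted p = 0.0675), nor without NC mimic replicate 1 (0.0722), NC mimic replicate 3 (0.188), miR-21-3p mimic replicate 1 (0.145) or miR-21-3p mimic replicate 3 (0.0854). Without NC mimic replicate 2, 3 of the 5 genes were called, beside 20.6% of all genes tested in that fit. ADM, the gene of the peptide adrenomedullin and the most abundant of the 5 by normalised count, had a log2 fold change of -0.0937 (adjusted p = 0.451), which was -0.054 without NC mimic replicate 3, -0.18 without miR-21-3p mimic replicate 2 and -0.0275 without miR-21-3p mimic replicate 3.

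Of 13 genes for protease inhibitors, 5 were tested and limma called 0, with 1 at an unadjusted p under 0.05 (beside 28.7% of all genes tested), and edgeR and DESeq2 also called 0. SERPINB1, an inhibitor of neutrophil elastase and the most abundant of these by normalised count, was at 2830, 2790 and 2880 with the NC mimic and at 2970, 3540 and 3030 with the miR-21-3p mimic. All miR-21-3p mimic libraries were above the controls, miR-21-3p mimic replicate 2 by the most (log2 fold change 0.16, limma adjusted p = 0.0992), and without that library the log2 fold change fell to 0.0825.

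Of 9 genes for partners or relatives of LCN2 and OLFM4, 4 were tested, of which 1 was higher and 1 lower, beside 6.25% and 4.85% of all genes tested. The median log2 fold change was -0.0615. OLFM1, another olfactomedin gene, was at 26.0, 31.9 and 24.4 with the NC mimic and at 43.9, 42.0 and 55.6 with the miR-21-3p mimic (log2 fold change 0.76, limma adjusted p = 0.0294). OLFML2A, an olfactomedin-like gene and the most abundant of the 4 by normalised count, was at 6710, 5730 and 6750 and then at 5260, 5600 and 4780 (-0.29, adjusted p = 0.0258). The groups were separate for both genes, so that OLFM4 and OLFM1 were higher while OLFML2A was lower. OLFM1 lost its call with DESeq2 (adjusted p = 0.0831). Leaving out NC mimic replicate 1, NC mimic replicate 3, miR-21-3p mimic replicate 1 or miR-21-3p mimic replicate 3 gave an adjusted p of 0.0846, 0.118, 0.0872 and 0.134 for OLFM1 and of 0.102, 0.112, 0.083 and 0.0908 for OLFML2A. Both held without NC mimic replicate 2, when 3 of the 4 genes were called, beside 20.6% of all genes tested in that fit.

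Of 15 genes that act upstream of antimicrobial genes in the IL-17, IL-22, NF-kB and C/EBP pathways, 14 were tested. Of these 14, 0 were called higher and 2 lower, beside 6.25% and 4.85% of all genes tested. The median log2 fold change was -0.078, and 4 of the 14 had an unadjusted p under 0.05, beside 28.7% of all genes tested. IL17RA, the shared receptor chain for IL-17 cytokines, was at 1900, 1730 and 1850 with the NC mimic and at 1580, 1610 and 1590 with the miR-21-3p mimic (log2 fold change -0.20, limma adjusted p = 0.0274). STAT3, the transcription factor activated by the IL-22 receptor, was at 4540, 4230 and 4410 and then at 3930, 3960 and 3690 (-0.19, adjusted p = 0.026), and was the most abundant of the 14 by normalised count. Each control was above each miR-21-3p mimic library for both genes, NC mimic replicate 2 being the lowest control. Leaving out NC mimic replicate 1, NC mimic replicate 3, miR-21-3p mimic replicate 1 or miR-21-3p mimic replicate 3 ended both calls, with an adjusted p of 0.0859, 0.119, 0.117 and 0.0881 for IL17RA and of 0.0827, 0.111, 0.0896 and 0.109 for STAT3. In all, 3 of the 14 genes were called without NC mimic replicate 2, beside 20.6% of all genes tested in that fit.

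Of 15 cytokine and other genes induced together with antimicrobial genes in psoriasis, 5 were tested, of which 1 was higher and 0 lower, beside 6.25% and 4.85% of all genes tested. The median log2 fold change was 0.11. IL1B, the gene of the cytokine IL-1 beta, was at 288, 330 and 305 with the NC mimic and at 439, 452 and 459 with the miR-21-3p mimic. The groups were far apart (log2 fold change 0.55, SE 0.0799, limma adjusted p = 0.00269), and IL1B was called in each fit that left out a library, with an adjusted p from 0.000123 without NC mimic replicate 2 to 0.0264 without miR-21-3p mimic replicate 1. STEAP4, a metalloreductase gene and the most abundant of the 5 by normalised count, had a log2 fold change of -0.0059 (adjusted p = 0.951), of which the sign turned when single libraries were left out. Without NC mimic replicate 2 or without miR-21-3p mimic replicate 2, 2 of the 5 genes were called, beside 20.6% and 10.9% of all genes tested in these fits.

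**Figure D5:**
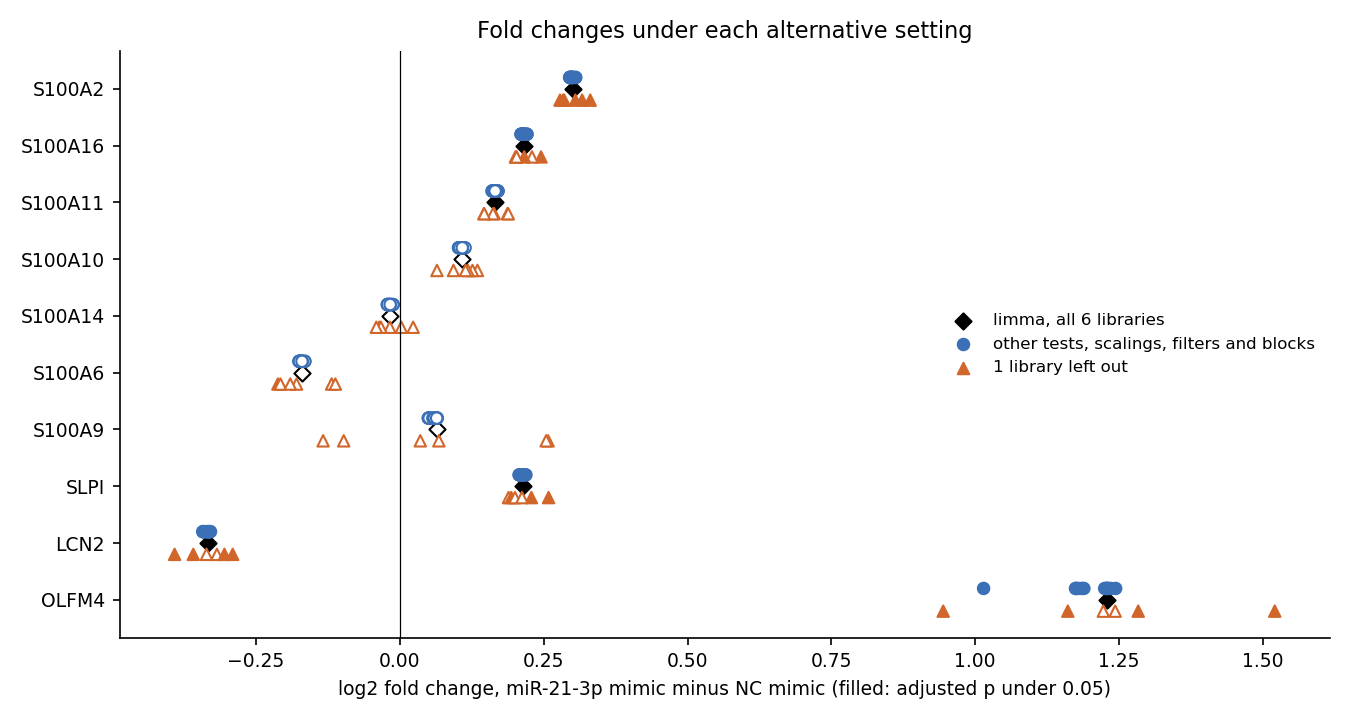
Log2 fold change (horizontal axis) of the 10 genes from limma with all 6 libraries (diamonds), from other tests, scalings, filters and blocks (circles) and with 1 library left out (triangles), filled where the adjusted p was under 0.05. The circles lie near the diamonds apart from OLFM4, the triangles spread further, and S100A2 is the only gene with every symbol filled.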

How the data were processed

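Polyadenylated RNA of 3 NC mimic and 3 miR-21-3p mimic HaCaT libraries was sequenced after a stranded mRNA kit, per the labels; the published methods name small RNA libraries instead, and the labels were followed. Per the labels, the authors used bcl2fastq 2.18.12, cutadapt 1.15, TopHat2 2.1.1, featureCounts of Subread 1.5.2 and DESeq2. The genome build, the annotation and the strand setting in counting were not given in the sources used here. The deposited signal per gene is a normalised read count, the reads divided by 1 size factor per library, kept to 3 significant digits. Whole reads were recovered by dividing by the value of 1 read: of the values above 0 and below 100 (23.8% to 24.4% of the values above 0 in a library), 100% came out within 0.1 of a whole number, and larger values give reads only to the digits kept.

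Because normalised values rather than counts were deposited, limma 3.58.1 (R 4.3.3, trend and robust) on log2(value + 1) was the main test in place of edgeR, as the design foresaw. Genes with a value of at least 10 in at least 3 libraries were tested (14795 genes), with Benjamini-Hochberg adjustment over all of them, two-sided and a threshold of 0.05. edgeR 4.0.16 on the recovered reads called 1684 genes. The limma procedure was tested on simulated data, where it missed some genes given small changes, so that a gene that did not pass the test may still have changed. The 18 alternatives covered edgeR scalings, DESeq2 1.42.0, filters, pseudocounts, a replicate block and leaving out each library. Replicate libraries of a group differed by more than sampling noise (chi-square per gene 1.72 to 3.23).

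The text names all 10 genes, and of 7 lists of related genes each gene past the threshold, the most abundant one and every other S100 gene with a mean of at least 10, with the 5 genes most like the gene of lowest adjusted p. Genes named outside this rule, among the marker genes and near the S100 genes, were chosen after their values were seen. The genes and the lists were chosen with earlier results of these data known. Positions and exon lengths came from GENCODE release 29 (GRCh38), matched by gene ID without its version, and promoters from RefSeq (GRCh38.p14), matched by symbol. The NF-kB letters of the start-site windows were narrowed to the degenerate consensus after a looser form had been searched, which had matched more of the genes and more of all windows.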

Additional observations from a re-analysis of the deposited data

How the results depend on the processing

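The 12 alternative fits that kept all libraries called 1090 to 1684 genes. Each unblocked one called the same number of the 10 genes as the main fit, 6. With the replicate number as a block, 1090 genes were called by edgeR (589 higher) and by limma (609 higher), with 5 of the 10 genes. S100A11 then lost its call, at 0.16 in edgeR (adjusted p = 0.107) and 0.17 in limma (0.0896), as did STAT3, IL17RA, CACYBP, CUL1 and LCE1E in both tools. The numbers did not pair the libraries: the deviations of same-numbered libraries correlated at -0.0774, -0.30 and -0.32 over 12173 genes, and no library correlated best with its own number. The highest correlations were 0.43 (NC mimic replicate 2 with miR-21-3p mimic replicate 3), 0.27 (3 with 1) and 0.23 (1 with 2). No fit paired the libraries in this way, and the cause of these correlations was not tested.

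Leaving out 1 library gave 257 to 3054 genes called (149 to 1667 higher, 108 to 1387 lower) and 1 to 7 of the 10 genes (1 to 5 higher, 0 to 2 lower). The log2 fold changes then ran from 0.28 to 0.33 for S100A2, 0.20 to 0.25 for S100A16, 0.15 to 0.19 for S100A11, 0.0644 to 0.13 for S100A10, 0.19 to 0.26 for SLPI, 0.94 to 1.52 for OLFM4, -0.39 to -0.29 for LCN2, -0.21 to -0.11 for S100A6, -0.041 to 0.023 for S100A14 and -0.13 to 0.26 for S100A9. Among related genes, S100A4 turned to -0.0024 with edgeR and RLE scaling, -0.0011 with DESeq2 and -0.0012 with edgeR and TMM, and ran from -0.0681 to 0.11 with 1 library left out, below 0 without NC mimic replicate 2 (-0.0569), NC mimic replicate 3 (-0.0349) or miR-21-3p mimic replicate 1 (-0.0681). STEAP4 ran from -0.0497 to 0.0295, turning to 0.0015 and 0.0114 without NC mimic replicates 2 and 3 and to 0.0295 and 0.0026 without miR-21-3p mimic replicates 1 and 3. The cause of these changes was not tested. The edgeR fit with TMM, the pseudocounts 0.5 and 10, the TMM-rescaled values and the limma block were added after seeing the data.

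S100A9 and OLFM4 rested on few reads. The deposited values hold 3 digits, so that differences below the last digit could not be seen in abundant genes such as S100A14.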
